A study of Mus musculus with 4 samples.

Results

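The transcription factors that build and maintain the exocrine pancreas were followed in RNA from mouse islet preparations after normal chow or a high-fat diet. The 9 genes were taken by name from a list of acinar and ductal factors, which was chosen with earlier results of these data known. They comprised Ptf1a, Rbpjl, Bhlha15, Nr5a2, Gata4, Sox9, Onecut1, Hes1 and Prox1. All 9 were found by symbol among 55421 Ensembl gene identifiers. The libraries came from wild-type (WT) mice of the inbred strain C57BL/6, 2 of them after feeding on normal chow (NCD) and 2 after a high-fat diet (HFD), and the labels call the material macrophages of the islet. Per the labels' protocols the isolated islets were frozen before RNA extraction, and no source used here gives a step that would separate macrophages from other islet cells. The sources used here also do not state the age of the mice, the length of feeding or the number of animals behind a library. The p-values therefore measure the spread between 4 libraries, part of which may be technical.

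The exocrine pancreas consists of acinar cells, which secrete digestive enzymes, and of the ducts that carry them. PTF1A, a basic helix-loop-helix protein, forms the PTF1 complex with an E protein (TCF3 or TCF12) and with RBPJ, and in mature acinar cells RBPJ gives way to its pancreas-restricted paralog RBPJL. This complex binds and activates the promoters of digestive enzyme genes, and it also activates Rbpjl itself. NR5A2, an orphan nuclear receptor, works beside PTF1 on the same enzyme genes. BHLHA15 (also called MIST1) organises the secretory granules of acinar cells and is also made in other secretory cells such as plasma cells. SOX9, ONECUT1 and the Notch effector HES1 mark progenitors and ducts. GATA4 acts in the early pancreas and in acinar cells, and PROX1 in progenitors. Several of the 9 are not restricted to exocrine cells. PROX1 is also found in islet endocrine cells and is the master regulator of lymphatic endothelium, HES1 is made wherever Notch is active, and SOX9 and GATA4 occur in mesenchymal cells.

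The libraries held 56740720 to 64490097 counts, with 25517 to 27502 genes counted per library. Endocrine hormones led the transcripts. In NCD Ins2 (insulin) stood at 9831 ± 84.6 CPM (counts scaled to the size of the library; mean ± SD, n = 2) and Gcg (glucagon) at 9252 ± 311 CPM, whereas Adgre1, which encodes the macrophage protein F4/80, stood at 30.7 ± 1.70 CPM, and at 26.4 and 24.3 CPM in the HFD libraries. All 12 macrophage markers examined had counts in every library, and their summed level was 1019 and 979 CPM in the NCD libraries against 941 and 944 CPM in the HFD libraries. Within that sum the markers went both ways, with 4 higher and 6 lower in HFD by edgeR, and 2 higher and 3 to 6 lower when 1 library was left out. Lyz2 (lysozyme), the most abundant, fell from 377 ± 6.34 to 277 ± 3.18 CPM and Cx3cr1, a chemokine receptor, from 11.0 ± 2.09 to 2.87 ± 0.181 CPM, whereas Itgam (CD11b) rose from 20.2 ± 1.33 to 53.9 ± 6.54 CPM and the general leukocyte gene Ptprc (CD45) from 53.7 ± 1.49 to 132 ± 2.86 CPM (edgeR adjusted p = 0.000998, 0.00153, 0.000657 and 0.000119). In bulk RNA of this kind, a change in the number of cells of a type and a change in RNA per cell cannot be told apart.

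Of the 9 factors, 7 were higher and 2 lower in HFD by edgeR's quasi-likelihood test at a Benjamini-Hochberg adjusted p under 0.05, where 32.4% of all 21563 tested genes were called (17.9% higher and 14.5% lower). Ptf1a and Rbpjl passed the filter on low counts only through HFD, so a difference was built into their being tested and their calls are given as a description. Of the other 7, Sox9, Onecut1, Hes1, Nr5a2 and Gata4 rose and Bhlha15 and Prox1 fell. The libraries of the diets did not overlap for any of the 9, nor for 67.7% of all tested genes. The number called higher was 3 or 4 when any 1 of the 4 libraries was left out, and the number called lower stayed at 2. Ptf1a and Gata4 lost their call whichever library was left out, Rbpjl without NCD replicate 2, HFD replicate 1 or HFD replicate 2, and Onecut1 without NCD replicate 1, HFD replicate 1 or HFD replicate 2.

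**Figure D1:**
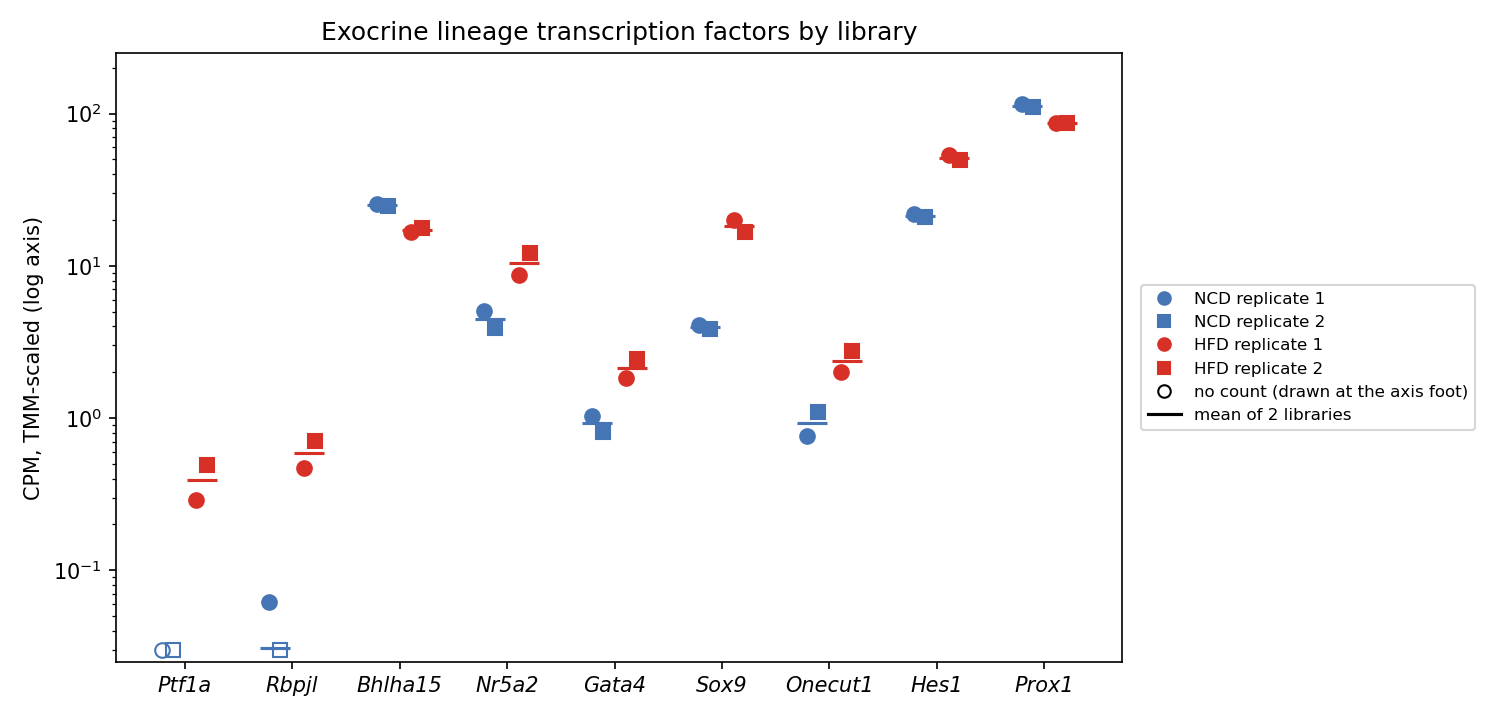
Level of the 9 transcription factor genes in each library, in CPM scaled by TMM on a log axis. Blue marks are NCD and red marks HFD, circles replicate 1 and squares replicate 2, bars the mean of the 2 libraries, and open marks at the axis foot libraries without a count. Bhlha15 and Prox1 were lower in both HFD libraries than in both NCD libraries, and the other 7 genes were higher.

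Ptf1a (ENSMUSG00000026735, chr2:19445663-19447501 on GRCm38, plus strand) had no count in either NCD library and 18 and 28 counts in the HFD libraries, or 0.291 and 0.494 CPM. The counts in these tables favour multiples of 4, so a floor of 12 counts per library was used for a gene without a count, which is 0.186 and 0.193 CPM in the NCD libraries. Against that floor the mean of the HFD libraries was at least 2.07-fold higher, a bound on the NCD side only. It takes the HFD mean, which rests on 18 and 28 counts, without error. The edgeR adjusted p of 0.0202 belongs to a fit against a group at 0 and is no test of that bound. Without NCD replicate 1, NCD replicate 2, HFD replicate 1 and HFD replicate 2 the edgeR adjusted p was 0.0567, 0.0546, 0.0788 and 0.144. Even in HFD Ptf1a was the second least abundant of the 9 factors per kilobase of exon. An antisense gene, Ptf1aos, covers 609 of its 1508 exon bases and had no count in any library. The sources used here do not state whether reads in shared bases were counted, so the level of Ptf1a per kilobase may be too low.

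Rbpjl (ENSMUSG00000017007, chr2:164403141-164415448, plus strand), the acinar form of the PTF1 subunit, had 4 and 0 counts in the NCD libraries against 29 and 40 in the HFD libraries. Its level was 0.468 and 0.706 CPM in HFD. The ratio of the summed counts was 18.4 (exact 95% interval 6.88 to 69.6), or 18.2 (2.85 to 759) when 4 counts were taken as 1 event, and these intervals cover counting error only. All 4 NCD counts came from replicate 1, and the fitted log2 change of 4.14 was 8.15 without that library, against a group then at 0, and 3.19 without NCD replicate 2. The call (edgeR adjusted p = 0.0453), of a gene tested through its HFD counts, was lost without NCD replicate 2, HFD replicate 1 or HFD replicate 2 (adjusted p by edgeR = 0.0754, 0.125 and 0.226). Matn4, which shares 149 exon bases with Rbpjl on the opposite strand, had 0 and 9 counts in NCD and 80 and 27 in HFD. Both acinar subunits of PTF1 were therefore at or near 0 in NCD and counted in both HFD libraries, at a low level.

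The subunits of PTF1 that many cell types make were far more abundant. Rbpj, the ubiquitous paralog of Rbpjl and the DNA-binding effector of Notch, rose from 68.6 ± 0.725 to 96.2 ± 2.60 CPM (log2 change 0.49 ± 0.06 SE, edgeR adjusted p = 0.00236). The E protein gene Tcf3 rose from 54.3 to 74.6 CPM (edgeR adjusted p = 0.0222), which was not called when NCD replicate 2, HFD replicate 1 or HFD replicate 2 was left out (adjusted p by edgeR = 0.0505, 0.0815 and 0.0578). Tcf12 stood at 76.2 CPM in NCD and 86.5 CPM in HFD (edgeR adjusted p = 0.537).

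Promoter sequence is shown for Rbpjl and Ptf1a because PTF1 is known to act on Rbpjl, and for the enzyme genes Cel and Ctrb1 because they carry the same pair of motifs. Windows of 300 bases, from 250 before to 50 after the start of the gene, were taken from RefSeq on GRCm38.p6, where 6 of the 9 factors matched. Both strands were searched for the E-box CANNTG, bound by helix-loop-helix proteins, for TGGGAA, the core bound by RBPJ and RBPJL, and for CAAGGNCA, the kind of site bound by NR5A2. Capitals mark each TGGGAA or CAAGGNCA (either strand) and each E-box within 20 bases of a TGGGAA. Sequences run 5′ to 3′ on the strand of the gene.
Rbpjl, chr2:164402944-164403243, plus strand: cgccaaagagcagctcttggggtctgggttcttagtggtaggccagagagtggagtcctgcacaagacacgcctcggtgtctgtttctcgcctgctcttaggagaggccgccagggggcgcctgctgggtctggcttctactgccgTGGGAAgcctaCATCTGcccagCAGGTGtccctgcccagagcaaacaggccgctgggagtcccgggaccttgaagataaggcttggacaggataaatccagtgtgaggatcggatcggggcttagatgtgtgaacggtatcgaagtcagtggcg
Ptf1a, chr2:19445413-19445712, plus strand: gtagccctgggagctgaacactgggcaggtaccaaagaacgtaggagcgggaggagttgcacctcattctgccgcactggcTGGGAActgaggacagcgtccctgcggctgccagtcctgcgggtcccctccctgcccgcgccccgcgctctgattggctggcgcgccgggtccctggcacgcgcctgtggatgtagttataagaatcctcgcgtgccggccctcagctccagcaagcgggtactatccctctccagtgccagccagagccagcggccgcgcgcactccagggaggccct
Cel, chr2:28563354-28563653, minus strand: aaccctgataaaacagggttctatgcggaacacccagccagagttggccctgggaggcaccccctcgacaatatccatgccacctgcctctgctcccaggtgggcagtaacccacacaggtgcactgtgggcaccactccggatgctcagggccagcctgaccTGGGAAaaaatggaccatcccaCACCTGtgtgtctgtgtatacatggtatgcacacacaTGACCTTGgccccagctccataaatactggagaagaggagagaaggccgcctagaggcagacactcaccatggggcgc
Ctrb1, chr8:111690961-111691260, minus strand: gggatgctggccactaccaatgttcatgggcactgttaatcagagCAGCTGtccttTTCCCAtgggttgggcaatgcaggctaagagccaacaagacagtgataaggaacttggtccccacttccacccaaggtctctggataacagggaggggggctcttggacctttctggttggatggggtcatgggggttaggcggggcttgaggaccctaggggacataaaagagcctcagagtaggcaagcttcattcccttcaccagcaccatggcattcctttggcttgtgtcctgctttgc

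In the Rbpjl window TGGGAA lay at -104 to -99 from the start site, with an E-box CATCTG 5 bases and an E-box CAGGTG 16 bases downstream of it. The Cel window held TGGGAA and CACCTG 16 bases apart, and a CAAGGNCA match on the opposite strand at -28 to -21. The Ctrb1 window held CAGCTG and, on the opposite strand, TGGGAA 5 bases apart. The Ptf1a window had TGGGAA at -169 to -164 without an E-box within 20 bases. Among the 28 acinar secretory products 23 had a window, of which 60.9% held TGGGAA, 43.5% CAAGGNCA and 17.4% an E-box within 20 bases of TGGGAA. Over all 32851 windows of the table these shares were 25.6%, 6.71% and 5.21%. The 17.4% is only 4 windows, those of Cel, Cpa1, Ctrb1 and Prss1. Prss1 and Cela3a, both among the 23, had no count in any library. A match describes the letters and not binding, and the E-box alone was in 72.3% of all windows.

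The acinar secretory products themselves rose. Of 28 such genes 26 could be tested, Ctrc through its HFD counts only, and all 26 were higher in HFD. Prss1 and Cela3a had no count in any library. The 25 with at least 10 counts in both NCD libraries had a median log2 change of 2.93, where the median over all tested genes was 0.0026, and the 28 genes together held 656 and 684 CPM of the NCD libraries against 4454 and 5176 CPM of the HFD libraries. Cpa1, a digestive carboxypeptidase known as a PTF1 target, rose from 35.6 ± 0.407 to 284 ± 30.003 CPM (edgeR adjusted p = 5.03e-05). By smallest p the leading members were Prss2, Try5 and Pnlip, at 2.81, 3.05 and 3.02 on the log2 scale, of which Prss2 and Try5 are near-identical trypsinogens that may exchange reads.

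Nr5a2 (ENSMUSG00000026398, chr1:136842571-136960448, minus strand) stood at 5.04 and 3.89 CPM in NCD and at 8.74 and 12.2 CPM in HFD. Both HFD libraries were above both NCD libraries, although the HFD libraries differed from each other more than the NCD libraries did. The log2 change was 1.23 ± 0.23 (SE; edgeR adjusted p = 0.0126), a 2.34-fold difference of means. It was called without each of the 4 libraries in turn, with an adjusted p of 0.04997 at the highest, without HFD replicate 2. Gata4 (ENSMUSG00000021944, chr14:63198922-63271692, minus strand) stood at 1.04 and 0.804 CPM in NCD and at 1.84 and 2.45 CPM in HFD. The groups did not overlap, and the log2 change was 1.22 ± 0.33 (edgeR adjusted p = 0.0404). Without NCD replicate 1, NCD replicate 2, HFD replicate 1 and HFD replicate 2 the edgeR adjusted p for Gata4 was 0.0630, 0.120, 0.0729 and 0.188. Its paralog Gata6, which acts with it in the pancreas, rose from 14.9 to 22.8 CPM (edgeR adjusted p = 0.0108).

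Bhlha15 (ENSMUSG00000052271, chr5:144190286-144194441, plus strand) ran the other way. It stood at 25.7 and 24.7 CPM in NCD and at 16.7 and 17.6 CPM in HFD, so that both HFD libraries were below both NCD libraries. The log2 change was -0.55 ± 0.09 (SE; edgeR adjusted p = 0.00832), and the call held without each library in turn (adjusted p 0.0286 to 0.0459). In NCD, where Ptf1a had no count, Bhlha15 had 1655 and 1536 counts.

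Of the genes known to lie downstream of Bhlha15, Rab3d, a small GTPase of secretory granules, fell from 111 ± 4.02 to 65.9 ± 3.26 CPM (log2 change -0.76 ± 0.06, edgeR adjusted p = 0.000851). Gjb1, the gap junction protein connexin-32 of acinar cells, had only 9 and 20 counts in the NCD libraries and was tested through its HFD counts, so its values are a description. It stood at 0.231 ± 0.129 CPM in NCD and 0.995 ± 0.283 CPM in HFD (edgeR adjusted p = 0.0481), and was not called when NCD replicate 1, HFD replicate 1 or HFD replicate 2 was left out (adjusted p by edgeR = 0.121, 0.228 and 0.0989). Rab26, another granule GTPase, stood at 0.750 ± 0.0306 CPM in NCD and 1.57 ± 0.123 CPM in HFD (edgeR adjusted p = 0.0565), and Atp2c2 had too few counts to be tested.

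Bhlha15 is also known as a target of XBP1, the factor that enlarges the secretory pathway. Of 16 genes of the XBP1 arm and of folding in the endoplasmic reticulum 15 were lower in HFD and none higher, with a median log2 change of -0.42. Over all tested genes 14.5% were called lower and 17.9% higher, with a median of 0.0026. The chaperone gene Hspa5 fell from 2919 ± 72.03 to 2000.1 ± 9.30 CPM, Hyou1, a chaperone of the same compartment, from 641 ± 3.92 to 413 ± 7.55, and Sdf2l1 from 133 ± 1.33 to 71.5 ± 2.07 (edgeR adjusted p = 0.000216, 0.000262 and 0.000294). Xbp1 itself stood at 244 ± 1.87 CPM in NCD and 235 ± 31.2 CPM in HFD (edgeR adjusted p = 0.702). The markers of the other cell types that use Bhlha15 moved upwards: all 10 tested plasma cell and B cell markers were higher, and together they held 623 and 626 CPM of the NCD libraries against 3875 and 3931 CPM of the HFD libraries. None of these 11 markers except Tnfrsf17 was at 0 in a library, and the part of these cells in the Bhlha15 level was not tested. The promoter window of Bhlha15, shown because it holds both an ACGTG, a core that XBP1 can bind, and CAAGGNCA matches, is given with these in capitals.
Bhlha15, chr5:144190036-144190335, plus strand: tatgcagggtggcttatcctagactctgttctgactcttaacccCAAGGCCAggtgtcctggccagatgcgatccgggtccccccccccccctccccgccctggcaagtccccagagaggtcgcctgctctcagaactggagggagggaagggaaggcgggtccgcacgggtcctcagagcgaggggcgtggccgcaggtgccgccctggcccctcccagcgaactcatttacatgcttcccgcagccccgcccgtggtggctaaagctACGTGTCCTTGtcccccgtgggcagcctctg
Its ACGTG lay at 20 to 24 bases from the start site and overlaps a CAAGGNCA match on the opposite strand at 23 to 30, and a further CAAGGNCA match lay at -206 to -199. ACGTG occurred in 19.6% of all windows.

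Sox9 (ENSMUSG00000000567, chr11:112782224-112787760, plus strand) stood at 4.06 and 3.86 CPM in NCD and at 19.957 and 16.7 CPM in HFD. This 4.62-fold difference of means exceeded the spread within either diet, with a log2 change of 2.21 ± 0.15 (SE; edgeR adjusted p = 0.000429). Among the 7 factors with at least 10 counts in both NCD libraries it had the largest log2 change. Onecut1 (ENSMUSG00000043013, chr9:74861921-74891781, plus strand) stood at 0.760 and 1.09 CPM in NCD and at 2.02 and 2.74 CPM in HFD, with a log2 change of 1.36 ± 0.35 (edgeR adjusted p = 0.0334). That call was lost without NCD replicate 1, HFD replicate 1 or HFD replicate 2 (adjusted p by edgeR = 0.0988, 0.0592 and 0.157). A gene model that shares 2171 of its 4113 exon bases on the same strand, Gm20649, had at most 1 count in a library, and the sources used here do not state how reads shared by both were assigned.

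Most of the ductal markers tested rose, with an exception among the keratins. Of 14 tested ductal markers 11 were higher and 1 lower (median log2 change 0.93, against 0.0026 over all tested genes). The shares over all tested genes were 17.9% higher and 14.5% lower. Cftr and Slc4a4, which encode ion transporters of ducts, were not called (edgeR adjusted p = 0.0881 and 0.513). Aqp1, a water channel that endothelial cells also make, rose from 3.57 ± 0.644 to 42.0 ± 0.0491 CPM (edgeR adjusted p = 0.000106). Spp1 (osteopontin), which macrophages also make, rose by a log2 change of 1.56 ± 0.07 (edgeR adjusted p = 0.000111). Krt7 fell, with 442 and 448 CPM in the NCD libraries against 231 and 250.1 CPM in the HFD libraries (log2 change -0.89 ± 0.05, edgeR adjusted p = 0.000263). Markers of mesenchymal cells, where Sox9 and Gata4 also occur, moved with them. All 12 fibroblast and stellate cell markers were higher in HFD, their sum went from 204 and 201.5 CPM to 1426 and 1463 CPM, none was at 0 in any library, and their part in the rise of Sox9 and Gata4 was not tested. Sox10, which marks Schwann cells, stood at 1.15 ± 0.108 CPM in NCD and 2.44 ± 0.190 CPM in HFD, and of 6 mesothelial markers Wt1 and Krt19 were higher and Msln lower.

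Hes1 (ENSMUSG00000022528, chr16:30064384-30067796, plus strand), which represses both acinar and endocrine differentiation in the developing pancreas, stood at 21.9 and 20.8 CPM in NCD and at 53.1 and 49.3 CPM in HFD. The log2 change was 1.26 ± 0.08 (SE; edgeR adjusted p = 0.000346), a 2.40-fold difference of means with libraries of a diet close to each other. Of 26 tested genes of the Notch pathway 15 were higher in HFD and none lower, with a median log2 change of 0.38, and 10 to 12 were higher when 1 library was left out. Among the receptors Notch2 rose from 29.9 ± 1.67 to 88.8 ± 3.73 CPM and Notch4, a mainly endothelial receptor, from 120.3 ± 4.45 to 173 ± 2.67 (edgeR adjusted p = 0.000153 and 0.00142). Lfng, a glycosyltransferase that modifies Notch receptors, rose from 6.15 ± 0.667 to 19.4 ± 2.27 (edgeR adjusted p = 0.00109). The ligand gene Jag1 and the target Nrarp rose from 38.8 to 60.2 and from 12.2 to 23.5 CPM (edgeR adjusted p = 0.00179 and 0.00183). Hey1 and Hey2, other Notch targets, were not called (edgeR adjusted p = 0.0511 and 0.143), and Hes5 had too few counts to be tested.

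Prox1 (ENSMUSG00000010175, chr1:190118035-190170714, minus strand) had more counts than any other of the 9 and fell. It stood at 115 and 110.5 CPM in NCD and at 86.6 and 87.3 CPM in HFD, with a log2 change of -0.38 ± 0.05 (SE; edgeR adjusted p = 0.00491). The groups did not overlap, and the call held without each library in turn (adjusted p 0.0142 to 0.0273). Prox1os, an antisense gene that shares 133 of 8390 exon bases with it, had 177 and 169 counts in the NCD libraries against 87 and 90 in the HFD libraries (edgeR adjusted p = 0.0487). Endocrine markers fell in the same libraries: of 18, 13 were lower and 2 higher in HFD, with a median log2 change of -0.29. Without NCD replicate 2, HFD replicate 1 or HFD replicate 2 only 1 was higher, and 9 to 12 were lower when any 1 library was left out. The zinc transporter gene Slc30a8 fell from 134 ± 3.15 to 59.3 ± 1.40 CPM, Iapp, a peptide secreted with insulin, from 5905 ± 235 to 3539 ± 104, and Pdx1, a factor of progenitors and beta cells, from 45.1 ± 0.720 to 27.2 ± 2.60 (edgeR adjusted p = 0.00015, 0.000188 and 0.00302). Gcg rose from 9252 ± 311 to 13132 ± 465 CPM (edgeR adjusted p = 0.000452). Of the lymphatic endothelial markers Pdpn, which fibroblasts also make, rose from 9.99 ± 0.121 to 98.8 ± 9.61 CPM, Lyve1 stood at 16.9 and 19.1 CPM on average in NCD and HFD (edgeR adjusted p = 0.274), and Ccl21a had no count in NCD and 653 and 203 counts in HFD. The part of these cell types in the level of Prox1 was not tested.

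**Figure D2:**
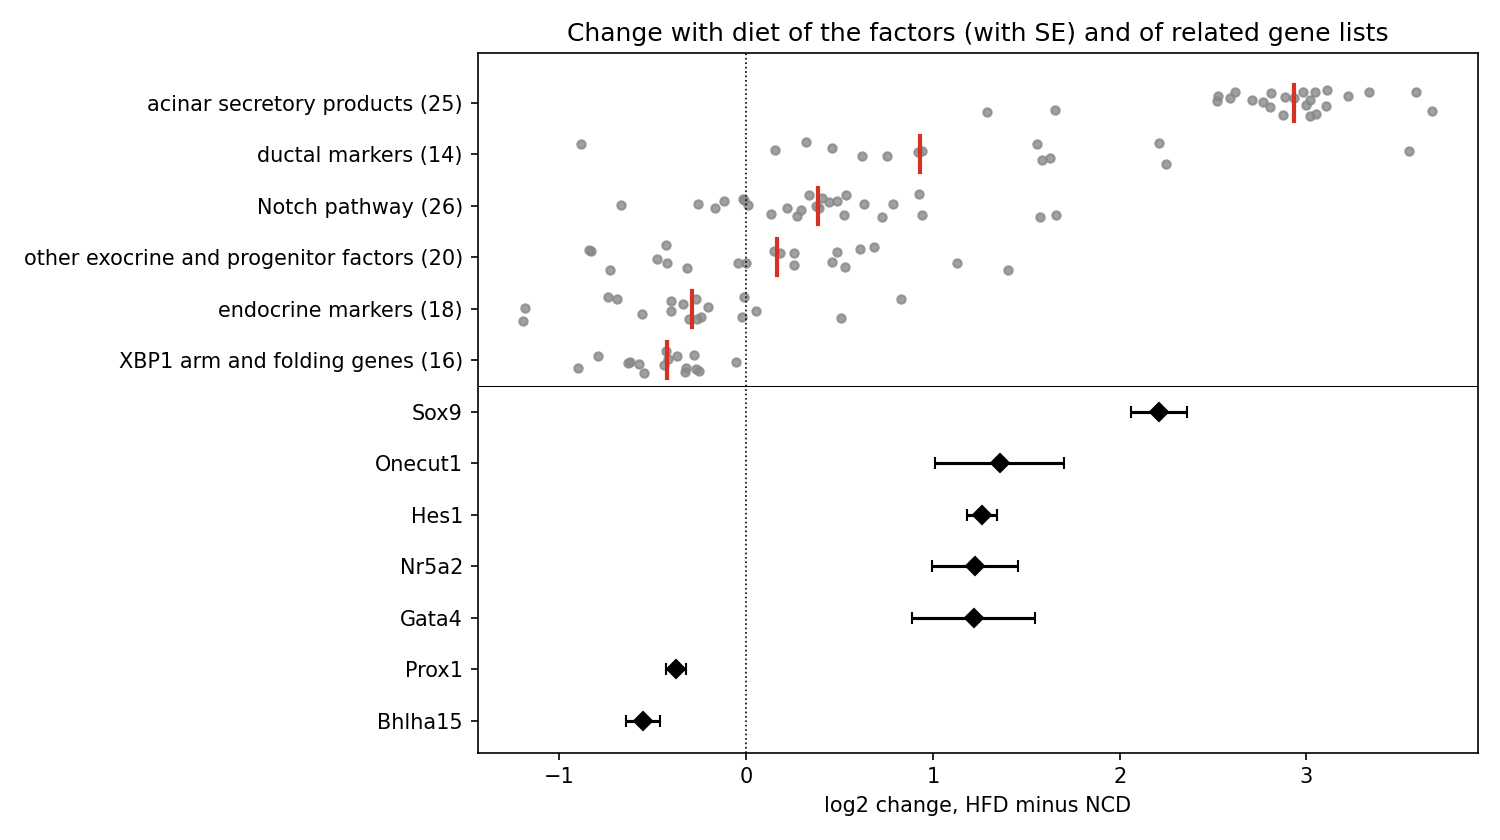
Log2 change of HFD against NCD for the 7 factors with at least 10 counts in both NCD libraries (black diamonds, bars ± SE) and for genes of 6 related lists that met the same count (grey points, one per gene, number in brackets, red line the median). Sox9, Onecut1, Hes1, Nr5a2 and Gata4 lie right of 0 but left of the acinar median of 2.93, and Prox1 and Bhlha15 lie left of 0, where the endocrine and XBP1 lists have their medians of -0.29 and -0.42.

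Compared per kilobase of exon (RPKM, CPM divided by exon length), the order of the factors changed between the diets at the top. The lengths include bases shared with other genes, which are many for Ptf1a and Onecut1, so the lower ranks are less sure. In NCD Prox1 was highest at 13.5 ± 0.396 RPKM, followed by Hes1 at 10.5 ± 0.381, Bhlha15 at 7.21 ± 0.194, Sox9 at 0.958 ± 0.0346 and Nr5a2 at 0.757 ± 0.137. Gata4 and Onecut1, at 0.236 ± 0.0425 and 0.225 ± 0.0574 RPKM, overlapped between libraries and could not be ranked, and Rbpjl and Ptf1a had next to no counts. In HFD Hes1 was highest at 25.1 ± 1.32 RPKM, followed by Prox1 at 10.4 ± 0.0646. Bhlha15, at 4.92 ± 0.177, and Sox9, at 4.43 ± 0.566, overlapped in HFD, whereas no library of the one reached the other in NCD. Nr5a2 followed at 1.77 ± 0.411, then Onecut1 and Gata4, which overlapped at 0.578 ± 0.123 and 0.550 ± 0.111, then Ptf1a at 0.260 ± 0.0955 and Rbpjl at 0.102 ± 0.0294.

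Set beside the acinar transcripts, each factor counted in both NCD libraries was scarcer in HFD. The summed acinar products rose 7.19-fold between the means of the diets, so any gene that rose by less is scarcer on this scale. Of these factors Sox9 rose most, at 4.62-fold, so the direction was fixed before the ratios were taken. Per 1000 CPM of summed acinar secretory products, Bhlha15 stood at 39.1 and 36.1 CPM in NCD and at 3.76 and 3.40 CPM in HFD, a 10.5-fold lower mean. Prox1 stood at 176 and 162 in NCD and at 19.4 and 16.9 in HFD, a 9.29-fold lower mean. The rising factors fell less on this scale, as for Sox9, at 6.20 and 5.64 in NCD and at 4.48 and 3.22 in HFD, and Nr5a2, at 7.68 and 5.69 in NCD and at 1.96 and 2.35 in HFD. Gata4, Onecut1 and Hes1 were 3.11-fold, 2.81-fold and 2.97-fold lower. Ptf1a, at 0.0653 and 0.0955 in HFD, and Rbpjl, at 0.105 and 0.136 in HFD, were scarce beside the enzyme transcripts, and in NCD Rbpjl stood at 0.0946 in replicate 1 and at 0 in replicate 2. These ratios are a description and were not tested.

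**Figure D3:**
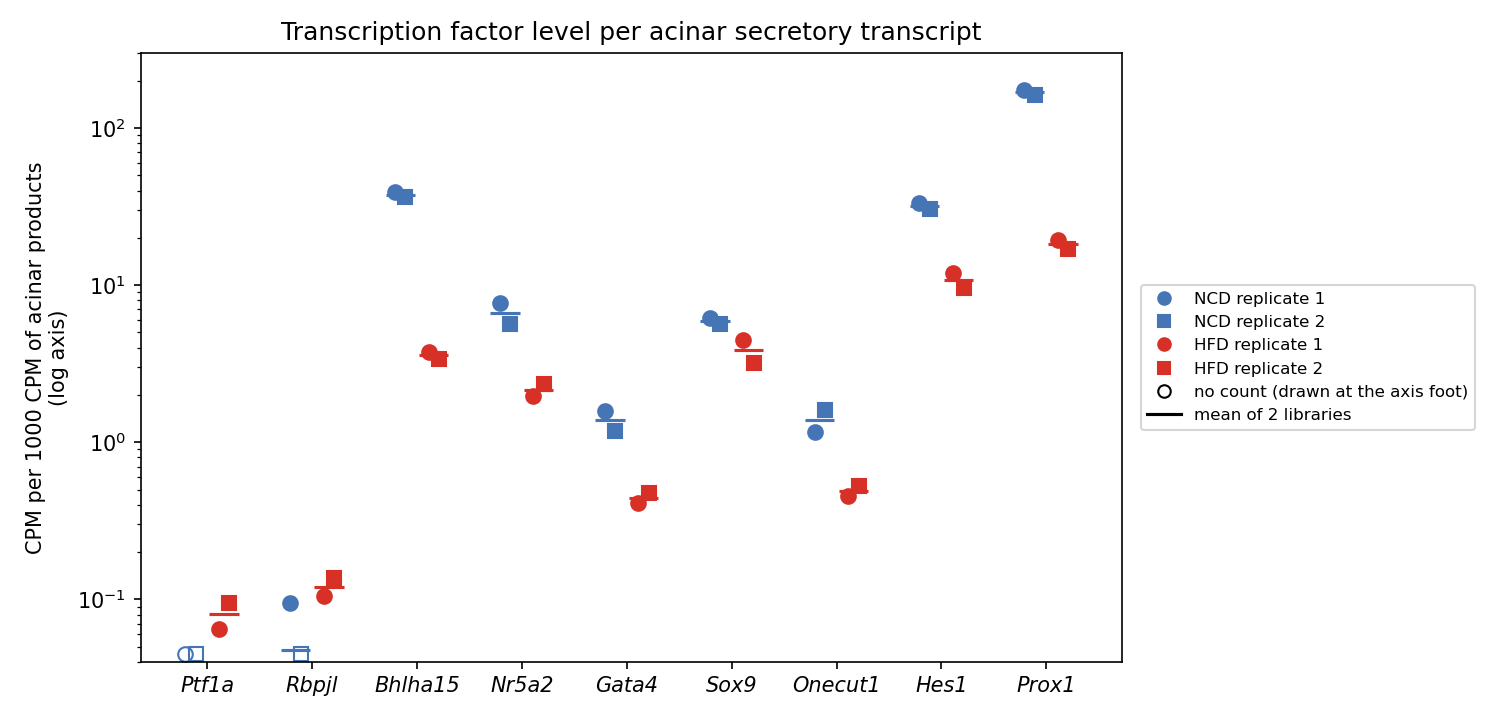
Level of each factor per 1000 CPM of 28 summed acinar secretory products, by library, on a log axis, with marks as in the plot of CPM by library. The 7 factors counted in both NCD libraries lie lower in both HFD libraries than in both NCD libraries, with the widest separation for Bhlha15 (39.1 and 36.1 against 3.76 and 3.40) and Prox1. The acinar sum itself rose 7.19-fold, so any gene that rose by less lies lower on this scale.

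The genes whose profile over the 4 libraries was nearest to that of each of the 7 factors with at least 10 counts in both NCD libraries were sought among 172 tested genes of the other lists, by the distance between log2 values centred on their mean. With 4 libraries this likeness reflects largely the size of the diet difference. For Ptf1a and Rbpjl no nearest gene is given, because where they had no count their log2 value is set by the 0.05 CPM added to every value. Bhlha15 was nearest to Chga, a granule protein of endocrine cells (distance 0.0745 on the log2 scale), and to Hspa5 (0.0872). Prox1 was nearest to the endocrine factor gene Insm1 (0.0481) and to Sel1l, a gene of protein degradation in the endoplasmic reticulum (0.0505). Sox9 was nearest to Car2, a carbonic anhydrase of ducts (0.152), and to Irf4 (0.204), and Onecut1 to Rnase1 (0.360) and the ductal keratin Krt19 (0.372). Hes1 was nearest to the leukocyte gene Ptprc (0.0607) and to Ngfr (0.117), and Nr5a2 and Gata4 were both nearest to Itgam (0.307 and 0.305) and Ngfr (0.376 and 0.334).

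Other transcription factors of the exocrine pancreas and its progenitors split in the same libraries. Of 21 that could be tested 7 were higher and 5 lower in HFD, with a median log2 change of 0.18. When 1 library was left out, 5 were higher, or 4 without NCD replicate 2, and 4 or 5 were lower, or 3 without NCD replicate 1 or HFD replicate 1. Sox4, a progenitor factor related to Sox9, rose from 80.1 ± 0.183 to 175 ± 7.38 CPM (log2 change 1.13 ± 0.05, edgeR adjusted p = 0.000163), and Yap1, the effector of Hippo signalling active in ducts, from 17.7 ± 1.19 to 46.8 ± 3.42 (1.40 ± 0.10, edgeR adjusted p = 0.000436). Onecut2, the paralog of Onecut1, rose from 7.38 to 11.9 CPM (edgeR adjusted p = 0.0173), which was not called when NCD replicate 1, NCD replicate 2 or HFD replicate 2 was left out (adjusted p by edgeR = 0.0628, 0.0671 and 0.0771). Besides Pdx1, the genes Mnx1, Hnf4a and Hnf4g, which islet cells also use, were lower (edgeR adjusted p = 0.00727, 0.0231 and 0.0468).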

How the data were processed

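RNA was sequenced from 4 mouse libraries, 2 per diet, grouped and numbered by their titles. The authors deposited whole-number counts per Ensembl gene, 1 table per library, and per the submitters' processing notes the tools were HISAT, featureCounts (1.5.0) and DESeq (1.8.3), with GRCm38 as the build. Their settings, such as strand and multi-mapping reads, are not stated in the sources used here. Symbols, coordinates and exon lengths came from GENCODE M21 (GRCm38), where 55240 of 55421 identifiers matched, and promoter windows from RefSeq (GRCm38.p6). Counts at multiples of 4 were 1.72 to 1.83 times as frequent as their direct neighbours, so precision may be lower than the totals of 56740720 to 64490097 counts give.

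Genes passing filterByExpr with a minimum count of 10 were scaled by TMM and tested for diet in edgeR 4.0.16 (R 4.3.3) with the quasi-likelihood F test, without a replicate block, with p adjusted over all 21563 genes. SE is the log2 change divided by the square root of F. Lists are described by counts and medians. Alternatives were DESeq2 1.42.0 (Wald test; its size factors in edgeR), limma-voom (limma 3.58.1), other filters, a replicate block, leaving out each library, other library sizes, counts divided by 4 and a 2-fold threshold. Where a diet kept 1 library, it was assumed to vary like the other diet. Likeness used log2(CPM + 0.05).

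The members, lists and alternatives were chosen with earlier results of these data known. Named were all members, up to 3 genes per list with the smallest p, Rbpj, Xbp1, Pdx1, Cpa1, Ins2, Gcg and Adgre1, and the nearest genes, except for Ptf1a and Rbpjl. Other genes named, and all motifs, were chosen after values were seen. A few genes are not reported here.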

Additional observations from a re-analysis of the deposited data

How the results depend on the processing

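The number of factors higher in HFD, 7, was 3 when a mean of 5 CPM was required, which 5 of the 9 met, 4 with a replicate block, and 3 to 4 when 1 library was left out. With counts divided by 4 it was 5, of 7 tested, since Ptf1a and Rbpjl no longer passed the filter. The number lower, 2, was 0 when a change of at least 2-fold was asked for, because Bhlha15 and Prox1 fell by less. Over all genes the 3860 higher and 3123 lower became 2160 and 287 with that threshold, and leaving out 1 library gave 2710 to 3224 higher and 2015 to 2174 lower. Bhlha15, Nr5a2, Sox9, Hes1 and Prox1 kept direction and call under all 12 other alternatives, with highest adjusted p of 0.0459, 0.04997, 0.00244, 0.00225 and 0.0273. With a replicate block the calls of Ptf1a, Rbpjl and Gata4 were lost (adjusted p = 0.0703, 0.0989 and 0.0814), and that of Onecut1 was kept. Libraries with the same number did not deviate together (correlation across genes 0.002), so the numbers are not shown to pair them. Without the count filter Rbpjl and Gata4 lost their calls (adjusted p = 0.0769 and 0.0569), and the higher genes fell from 2 to 1 among endocrine markers, from 4 to 2 among macrophage markers and from 1 to 0 among genes downstream of Bhlha15. No factor reversed under these alternatives. Ratios to acinar products moved by less than their spread without the trypsinogen genes. The low counts of Ptf1a and Rbpjl limit what can be said of their size in NCD.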
